A study of Homo sapiens with 16 samples.

Results

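Chromatin sites that were open in ancestral MDA-MB-231 cells on both soft and stiff gel, and that had no listed peak in the selected cells on either gel, numbered 8216 of 161185 merged regions. MDA-MB-231 is an established, basal and mesenchymal-like line from a human breast adenocarcinoma. The assay was ATAC-seq: a transposase enters nuclei and cuts DNA that is accessible, and sequenced fragments pile up where it cuts often. The 16 samples fell into 4 groups of 4, with 1 deposited peak list per group: ancestral cells on 1 kPa gel (soft), ancestral cells on 308 kPa gel (stiff), selected cells on soft gel and selected cells on stiff gel. Cells grew on collagen I over polyacrylamide, and selection lasted 75 days, with 20000 cells moved to fresh gel about every 7 days. The sources used here do not settle whether the selected cells on stiff gel had been selected there or on soft gel, nor how long the ancestral cells had been on a gel. The labels do not say whether the 4 samples of a group were separate cultures. Each library was made from 50000 nuclei out of 200000 cells.

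Peaks of the 4 lists on chromosomes 1 to 22 were merged wherever they overlapped by at least 1 bp. An ancestral-only region held a peak of both ancestral lists and no peak of a selected list, and did not overlap a stretch in which a selected list skips a peak number, since a peak there was not analysed here. These regions made up 5.10% of all merged regions (95% exact Clopper-Pearson interval 4.99 to 5.21) and 9.38% of the 87618 regions that had a peak in both ancestral lists and remained after the removal given next. Of 9848 regions with that pattern of peaks, 1632 (16.6%) touched such a stretch and were left out. Presence and absence of peaks chose the regions, so their number and strength are a description and carry no test. With 1 list per group there was no replicate spread for any value, and all intervals cover counting error only. For comparison, 70318 regions had a peak in all 4 lists and 15857 had a peak in both selected lists and in no ancestral list, of which 15277 (9.48% of all merged regions) remained after the same removal at skipped stretches of the ancestral lists and are the regions called in both selected lists only.

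Accessible sites away from promoters are often enhancers, which bind sequence-specific factors and act on genes at a distance, while promoters of widely used genes are rich in CpG and open in most cells. In basal breast cancer lines, AP-1 and the TEAD proteins, the DNA-binding partners of the stiffness-sensitive coactivators YAP and TAZ, occupy many enhancers. Soft matrix is known to keep YAP and TAZ out of the nucleus, and stiff matrix to promote tension on focal adhesions and actin. Absence from a list means that no peak passed the authors' threshold, not that the chromatin was closed.

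The line was checked by peaks within 1 kb of either end of marker genes. VIM, the mesenchymal filament gene, had an end peak in every list, with fold enrichments of 150 and 172 in ancestral cells on soft and stiff gel and 74.0 and 105 in selected cells. AXL, EGFR and CAV1 also had end peaks in all 4 lists. ESR1, the luminal estrogen receptor gene, and PTPRC, a marker of all white blood cells, had none in any list. Among other defining markers, PGR, GATA3, FOXA1, SNAP25, SYT1 and GAD1 had end peaks in all 4 lists, and CD3D had none in either ancestral list and 2.35 in both selected lists.

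Sequences upstream of genes whose start lay in an ancestral-only region are shown first, because they are the members for which the bases are at hand. Of 33725 RefSeq promoter windows of 300 bases, from 250 before to 50 after a gene's start, 155 (0.460%) overlapped an ancestral-only region. The 5 below are those of the protein-coding genes with the strongest such regions, with 1 given for the pair CAPN14 and EHD3, whose starts share a region and face away from each other. They are the 250 bases before the start, 5′ to 3′ on the gene's strand, from RefSeq's GRCh38.p14. Capitals mark matches on either strand to the SP/KLF motif GGGCGG, the E-box CACGTG or CCAAT.
DACT2: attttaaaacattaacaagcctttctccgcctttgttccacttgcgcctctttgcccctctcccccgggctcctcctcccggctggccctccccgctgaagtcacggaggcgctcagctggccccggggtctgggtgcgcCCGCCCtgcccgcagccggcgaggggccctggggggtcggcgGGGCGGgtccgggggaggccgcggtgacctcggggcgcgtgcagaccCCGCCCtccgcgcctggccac
EHD3: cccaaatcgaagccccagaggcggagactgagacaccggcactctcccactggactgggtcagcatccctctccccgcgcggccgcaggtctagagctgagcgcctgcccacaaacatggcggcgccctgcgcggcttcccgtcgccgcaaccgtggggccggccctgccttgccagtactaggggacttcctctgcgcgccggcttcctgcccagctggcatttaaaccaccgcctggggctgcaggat
NOD2: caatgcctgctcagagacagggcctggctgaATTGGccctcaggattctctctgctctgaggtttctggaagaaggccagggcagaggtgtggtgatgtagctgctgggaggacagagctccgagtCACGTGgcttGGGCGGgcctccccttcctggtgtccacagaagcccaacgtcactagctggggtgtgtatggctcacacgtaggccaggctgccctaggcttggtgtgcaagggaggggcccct
CYP19A1: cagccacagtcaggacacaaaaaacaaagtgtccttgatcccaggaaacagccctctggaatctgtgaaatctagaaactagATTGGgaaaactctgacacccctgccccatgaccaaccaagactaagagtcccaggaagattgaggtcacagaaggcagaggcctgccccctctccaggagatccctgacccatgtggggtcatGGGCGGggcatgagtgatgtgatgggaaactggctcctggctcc
TANK: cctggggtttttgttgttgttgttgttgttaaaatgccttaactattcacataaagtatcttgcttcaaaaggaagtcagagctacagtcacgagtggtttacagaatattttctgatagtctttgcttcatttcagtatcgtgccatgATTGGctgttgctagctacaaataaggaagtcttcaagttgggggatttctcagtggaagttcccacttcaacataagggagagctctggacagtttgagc

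DACT2, which encodes a modulator of Wnt and TGF-beta family signalling, had the strongest region at a start, chr6:168318673-168321137, with a fold enrichment of 14.4 on soft gel and 17.6 on stiff gel. Its printed bases lie at chr6:168319778-168320027 on the minus strand and hold SP/KLF matches that begin 110, 68 and 21 bases before the start. The region shared by EHD3, an endosomal transport gene, and CAPN14, a calpain protease gene, reached 12.19 and 12.01, and the EHD3 bases (chr2:31233902-31234151, plus strand) hold no match to any of the 7 motifs searched. NOD2, an intracellular sensor of bacterial cell wall, had 12.3 and 10.6 at a start whose upstream bases (chr16:50696698-50696947, plus strand) hold an E-box 124 bases before it. CYP19A1, the aromatase that makes estrogen, had 10.6 and 9.05 at a start with upstream bases at chr15:51318498-51318747 on the minus strand. TANK, an adaptor in NF-kB and interferon signalling, had 8.84 and 10.0, with the bases at chr2:161136713-161136962 on the plus strand.

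A second set of upstream sequences is shown because it holds the AP-1 motif TGANTCA, where N is any base. It was chosen after its values were seen, as 1 gene of a fixed list (MMP7), 1 of the genes with the most ancestral-only regions (KCNIP4) and 1 other (EVI5). Capitals mark, on either strand, the AP-1 motif, the TEAD motif GGAATG, the TATA box spelled TATAAA, and also the box spelled CCAAT.
MMP7: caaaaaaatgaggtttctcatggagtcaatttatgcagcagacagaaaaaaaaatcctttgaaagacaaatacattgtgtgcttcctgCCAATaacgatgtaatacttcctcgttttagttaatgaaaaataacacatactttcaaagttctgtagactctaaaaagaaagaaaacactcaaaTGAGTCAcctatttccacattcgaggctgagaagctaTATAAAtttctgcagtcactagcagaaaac
KCNIP4: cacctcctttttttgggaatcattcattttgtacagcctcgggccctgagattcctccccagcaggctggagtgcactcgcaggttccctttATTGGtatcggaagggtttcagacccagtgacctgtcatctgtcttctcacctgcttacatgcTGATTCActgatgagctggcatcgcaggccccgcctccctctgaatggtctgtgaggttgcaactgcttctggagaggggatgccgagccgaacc
EVI5: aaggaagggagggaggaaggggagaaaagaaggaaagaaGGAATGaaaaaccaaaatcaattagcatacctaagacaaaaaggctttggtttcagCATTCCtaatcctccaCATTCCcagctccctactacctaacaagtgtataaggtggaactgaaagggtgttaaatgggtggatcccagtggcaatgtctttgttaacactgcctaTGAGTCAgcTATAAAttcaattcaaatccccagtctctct

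MMP7 encodes matrilysin, a small secreted matrix protease. Its start lay in chr11:102530569-102530923, with fold enrichments of 5.08 and 4.19 on soft and stiff gel. No other region lay within 1 kb of either end of the gene. The MMP7 bases (chr11:102530748-102530997, minus strand) hold an AP-1 match that begins 67 bases before the start and TATAAA that begins 30 bases before it. KCNIP4, a potassium channel partner, has a start inside the long gene at which the region reached 3.87 and 3.39, and AP-1 lies 95 bases before it (chr4:21697741-21697990, minus strand). EVI5, which encodes a GTPase-activating protein for Rab proteins, had 5.08 and 4.33, with AP-1 at 40 and TATAAA at 31 bases before the start (chr1:92792411-92792660, minus strand).

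The 155 promoter windows in ancestral-only regions had a low median CpG content, though 38 of them, with DACT2 (72.7%) among these, had a GC content of at least 55%. Of these windows, 67 belonged to protein-coding genes and 88 to long non-coding RNA (lncRNA) genes, and 66 were covered over their whole length. Their median GC content was 48.3% (95% interval of the median 46.3 to 50.3), against 65.0% for windows in regions of all 4 lists, 64.0% for those in both selected lists only and 45.7% for windows that no region overlapped. The ratio of observed to expected CpG had a median of 0.230, against 0.810 in windows of all 4 lists. The removal at skipped stretches left out more windows of ancestral-only regions than it kept. The GC and CpG content of the windows left out was not taken.

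The motif TGANTCA was present in 30 of the 155 windows, 19.4% (13.5 to 26.5), against 6.01% of windows in all 4 lists, 3.90% of those in both selected lists only and 7.67% of all 33725 windows. Since GC content moves with these shares, they were also taken within bands of it. Among windows of 45 to 55% GC the motif was in 17 of 67 ancestral-only windows (25.4%, 15.5 to 37.5), 13.6% of windows in all 4 lists and 10.99% of windows without a region. Under 45% GC it was in 12 of 50 (24.0%, 13.1 to 38.2), against 20.2% and 12.2%, so the interval held the all-4 value there. At 55% GC or more it was in 1 of 38 (2.63%, 0.0666 to 13.8), against 4.03% and 4.80%. With regions at skipped stretches kept, the motif was in 9.97% of 371 windows, close to the 10.2% of windows without a region. GGAATG was in 33 windows (21.3%, 15.1 to 28.6), against 11.7% in all 4 lists and 14.0% of all windows, and within 45 to 55% GC in 25.4% against 20.4%, inside the interval. GGGCGG was in 18 (11.6%) against 66.2% in all 4 lists and 45.04% of all windows. TATAAA was in 12.9%, against 5.35% and 11.6%, and CCAAT in 38.1%, against 33.1% and 34.4%. CACGTG was in 5.81%, against 9.15% and 7.18%, and the CRE motif TGACGTCA was in 1 window. Both strands were searched, and none of the 7 motifs contains another. A match describes the letters and is not evidence of a bound factor.

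Ancestral-only regions were weak and narrow beside regions found in all 4 lists. Fold enrichment, the authors' pileup over a single background per list, had a median of 3.70 on soft gel (quartiles 2.89 and 4.97, highest 20.8) and 3.82 on stiff gel (2.92 and 5.09, highest 22.4). Regions of all 4 lists had medians of 11.7 and 13.2. The median width was 517 bp, against 1390 bp for regions in all 4 lists and 919 bp for regions in both selected lists only. A −log10 q-value of at least 10 in both ancestral lists was reached by 5568 (67.8%) and by 90.2% of regions in all 4 lists.

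The 2 ancestral lists, made from separate libraries, placed these peaks at nearly the same base. The rule required their peaks to overlap, and those peaks had median widths of 416 bp on soft gel and 470 bp on stiff gel. Close summits therefore follow in part from the choice of regions and do not measure reproducibility. Summits on soft and stiff gel lay a median of 21 bp apart, and 86.0% lay within 100 bp of each other, against 87.1% in regions of all 4 lists. In 8161 regions (99.3%) each ancestral list had exactly 1 peak. Fold enrichment on soft and stiff gel had a Spearman correlation of 0.81 across the 8216 regions and of 0.98 across regions in all 4 lists, as a description over sites that share libraries and depth and differ in range.

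**Figure D1:**
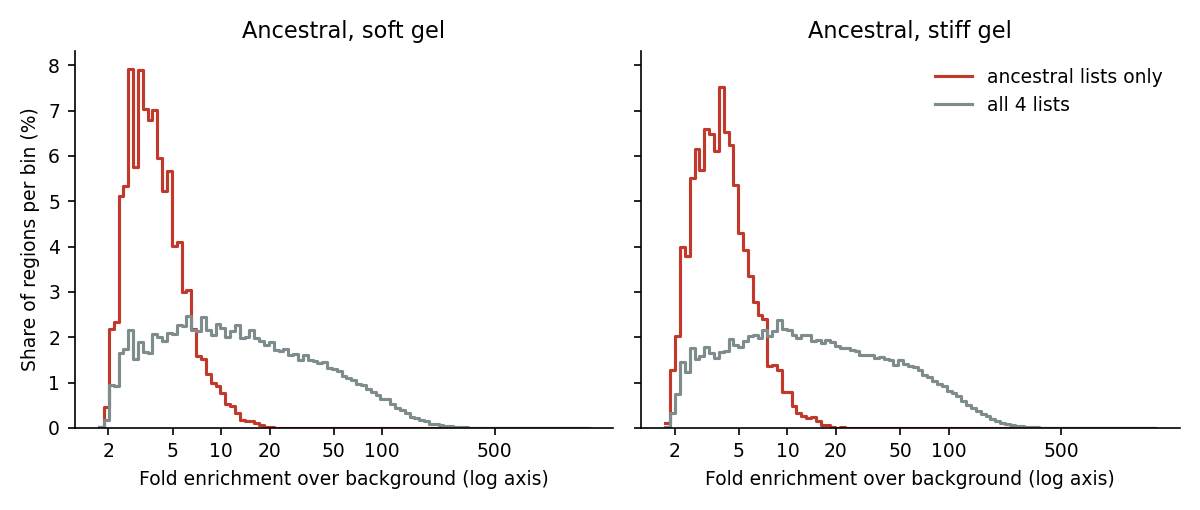
Distribution of fold enrichment (horizontal log axis, no unit) in the ancestral list on soft gel (left) and on stiff gel (right), as the share of regions per bin (vertical axis, %), for ancestral-only regions and for regions in all 4 lists. Ancestral-only regions end at 20.8 and 22.4, below a large part of the regions in all 4 lists, whose medians are 11.7 and 13.2.

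How often a region of both ancestral lists lacked a selected peak depended on its strength. The lower of the soft and stiff fold enrichments was used to order them. The share was 22.5% (21.7 to 23.2) between 2 and 3, 24.2% between 3 and 4, 18.5% between 4 and 5 and 11.6% between 5 and 6. Above that it was 7.05% between 6 and 8, 3.93% between 8 and 10 and 1.31% between 10 and 15. Between 15 and 20 it was 16 of 5666 regions (0.282%), and none of the 24078 regions at 20 or more qualified, which allows up to 0.0153% (the upper end of the exact interval). Ancestral-only regions were thus found among weak and middling sites and at none of these 24078.

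**Figure D2:**
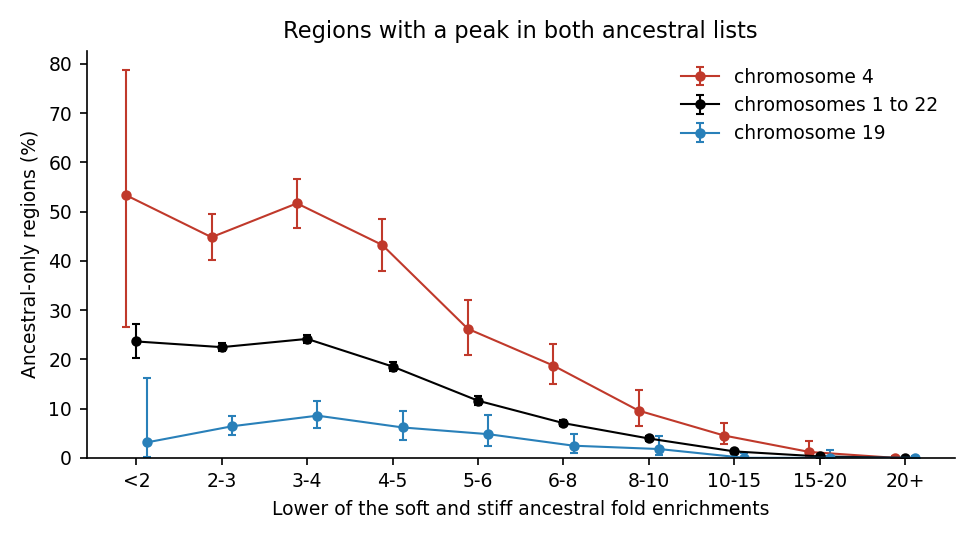
Share of regions with a peak in both ancestral lists that were ancestral-only (vertical axis, %), by the lower of the soft and stiff fold enrichments (horizontal axis, no unit), for chromosomes 1 to 22, chromosome 4 and chromosome 19, with exact 95% intervals as bars. Chromosome 4 lies above the whole genome and chromosome 19 below it from 2 to 8, and all 3 reach 0 at 20 or more.

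The selected lists also held fewer fragments per site. At regions in all 4 lists the selected pileup was a median of 0.495 times the ancestral pileup on soft gel and 0.412 times on stiff gel, while the lowest listed pileup was 27 and 26 in the selected lists. Each ancestral-only region's pileup was multiplied by that ratio and set beside the lowest listed value of the selected list on the same gel. On both gels, 4849 regions (59.0%, 57.9 to 60.1) were at or above it. None of the 2924 regions with a lower fold enrichment under 3 were, 81.6% of those between 3 and 4 were, and all of those at 4 or more were. The outcome under 3 and at 4 or more followed from the constants, because fold enrichment is computed from pileup and the list's background. Only the share between 3 and 4 depended on the regions. The other regions would lie under the lowest listed pileup at the common ratio alone. The selected pileup at the ancestral-only regions themselves is not among the values used here.

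The strongest ancestral-only region, by the lower of its 2 values, lay inside SHROOM3, which encodes an actin-binding protein that contracts the cell apex. At chr4:76624082-76624753 the fold enrichment was 19.6 on soft gel and 22.4 on stiff gel, from pileups of 338 and 475, with both summits at the same base. Scaled as above, these pileups were 167 and 196, well over the lowest listed 27 and 26, and the nearest selected peak lay 9.34 kb away.

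Other regions at the top of the order lay in a gene or up to 175 kb from the nearest one. SYN3, a synaptic vesicle gene that spans the inhibitor gene TIMP3, had 20.8 and 18.6 at chr22:32737686-32738554. A site 25.2 kb from ACKR3, the scavenging receptor for the chemokine CXCL12, had 18.1 and 17.7 (chr2:236607109-236608015). A site 9.83 kb from PRDM1, a repressor that drives plasma cell fate, had 17.6 and 18.3 (chr6:106119359-106120178). These values were alike on both gels, each over its own background.

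BDKRB2, a bradykinin receptor gene, held 16.7 and 17.7 at chr14:96225498-96226446. NUAK1, a kinase that acts on myosin phosphatase, had a site 75.8 kb away with 20.2 and 16.6 (chr12:105986748-105987931). SORBS2, an adaptor of stress fibres and adhesions, held 15.9 and 15.9 at chr4:185914364-185915213. DLG1, a polarity scaffold, had 16.2 and 16.3 at 36.3 kb (chr3:197335096-197336036). The others of the first 12 were in SYNRG (17.3 and 16.3) or nearest to TFF2 (18.7 and 15.8), SERP2 (17.2 and 15.7, at 136 kb) and KIT, the stem cell factor receptor (15.7 and 17.0, at 175 kb). In all 12 the scaled pileups were at or above the lowest listed selected value on both gels. Every ancestral-only region with a lower fold enrichment of 4 or more reached it, so the choice of the strongest fixed this.

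At the other end, the regions nearest the thresholds were at or close to them by a few bases or counts. The 5 nearest to a selected peak were 1, 15, 18, 22 and 24 bp from it, and the 5 just outside overlapped one by 1, 3, 5, 9 and 10 bp. The weakest member had fold enrichments of 2.48 and 1.79, with −log10 q-values of 5.97 and 2.21. Few regions were decided by such margins of bases. Only 29 of 79402 regions with both ancestral peaks and a selected peak were covered by it over 100 bp or less. A selected peak lay within 500 bp of 316 members (3.85%). How many members were decided by a few counts in the selected lists cannot be told, since those lists hold no peak below their lowest pileup. The median distance to the nearest selected peak was 7.03 kb, and 4762 (58.0%) had one within 10 kb.

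Ancestral-only regions lay away from gene starts. Inside a protein-coding gene were 3139 summits (38.2%, 37.2 to 39.3), against 47.9% for regions in all 4 lists and 62.8% for regions in both selected lists only. More than 100 kb from any protein-coding gene were 29.4% (28.4 to 30.4), against 13.1% and 5.54%, and more than 500 kb away were 13.4%, against 5.54% and 0.655%. Within 1 kb of a gene end were 199 regions (2.42%, 2.10 to 2.78), against 14065 of the 70318 and 10.2%. Inside a lncRNA gene were 16.2%, against 14.7% and 11.6%. The median distance to the nearest RefSeq start was 46.2 kb (44.3 to 48.1), against 20.8 kb and 19.1 kb.

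**Figure D3:**
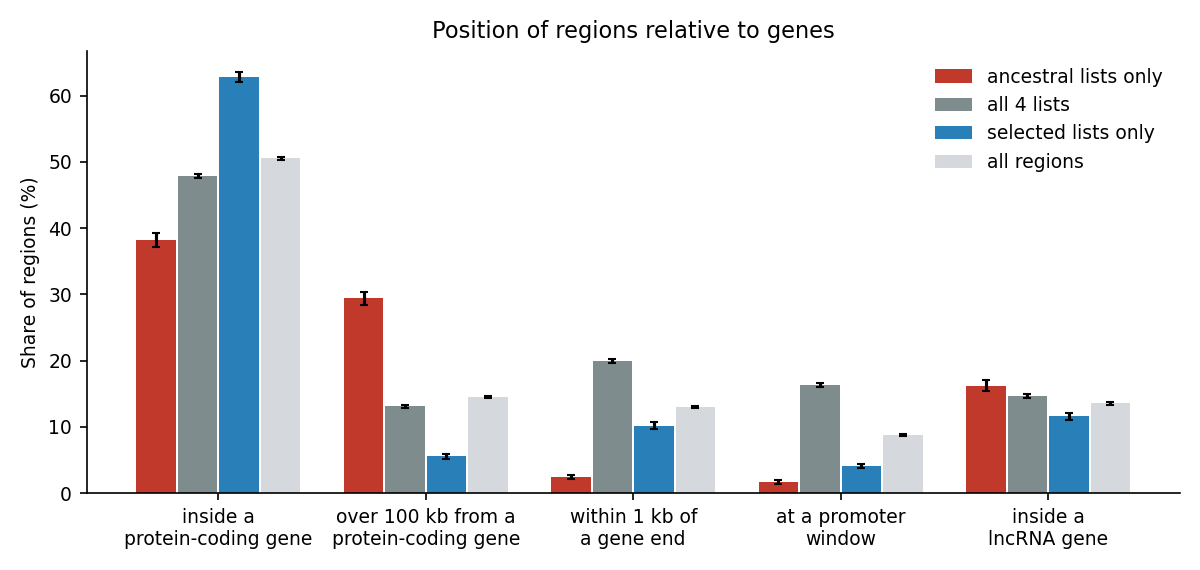
Share of regions (vertical axis, %) by position relative to annotated genes (horizontal axis), for ancestral-only regions, regions in all 4 lists, regions in both selected lists only and all regions, with exact 95% intervals as bars. Ancestral-only regions have the highest share over 100 kb from a gene (29.4%) and the lowest at gene ends (2.42%).

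Placement was also taken among the stronger ancestral-only regions, beside comparison regions that were not filtered by strength, and then within bands of fold enrichment. Among the 4849 regions with a scaled pileup at or above the lowest listed one, 40.6% were inside a gene, 23.9% over 100 kb away and 2.19% at a gene end. Over 500 kb away were 291 of these 4849, with an interval (5.35 to 6.71%) that held the 5.54% of regions in all 4 lists. With −log10 q of at least 10 in both ancestral lists it was 6.97% (6.31 to 7.67), near the 6.52% of all regions. The 13.4% of all ancestral-only regions over 500 kb away was thus not kept among these stronger ones. Between a lower fold enrichment of 6 and 8, the share that was ancestral-only was 1.67% (7 of 419 regions) at promoter windows, 6.07% inside genes and 9.83% over 100 kb away. Between 2 and 3 it was 8.91%, 16.8% and 35.3%. Between 3 and 4 the shares inside genes and over 100 kb away were within each other's intervals, 23.6% (22.3 to 24.9) and 24.3% (22.6 to 26.1), against 12.2% at promoter windows. The removal of regions at skipped stretches bears on this count: with them kept, 44.3% were inside a gene, 24.6% over 100 kb away, 5.96% at a gene end and 3.00% at a promoter window.

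The regions were spread unevenly over the chromosomes. Chromosome 4 had the highest share, with 767 of 5626 regions (13.6%, 12.7 to 14.6), followed by chromosome 13 (10.2%), 18 (8.98%) and 2 (7.72%). Chromosome 19 had the lowest, with 123 of 8571 (1.44%, 1.19 to 1.71), or 4.72% with −log10 q of at least 10 in all 4 lists, 3.37% with skipped stretches kept and 0.852% among scaled pileups at or above the lowest listed. Next were chromosomes 17 (2.49%) and 20 (2.52%). On chromosome 4 those 3 settings gave 18.9%, 14.7% and 8.98%. The scaled setting used 1 ratio for the genome, although the ratio was lower on chromosome 4 and higher on chromosome 19, as given below. Chromosome 19 is the most gene-dense of the 22 and chromosomes 4, 13 and 18 are poor in genes. At equal strength chromosomes 4 and 19 still differed: between fold enrichments of 3 and 5, 47.8% of regions in both ancestral lists were ancestral-only on chromosome 4 (44.2 to 51.4) and 7.60% on chromosome 19 (5.77 to 9.77).

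The pileup at regions open in all 4 lists moved with these shares. Relative to the genome, the log2 ratio of selected to ancestral pileup was −0.27 on soft gel and −0.25 on stiff gel for chromosome 4, and 0.20 and 0.19 for chromosome 19. Across the 22 chromosomes the share of ancestral-only regions had a Pearson correlation of −0.88 with that ratio on soft gel and −0.91 on stiff gel (Spearman −0.84 and −0.93), and of −0.63 with gene density (Spearman −0.80). Across 247 windows of 10 Mb with at least 200 regions, the correlations were −0.60 and −0.59 with the pileup ratio and −0.47 with gene density. These are descriptions over points that share the same 4 lists, their depth and their base composition. DNA copy number, depth and accessibility cannot be told apart in these lists.

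**Figure D4:**
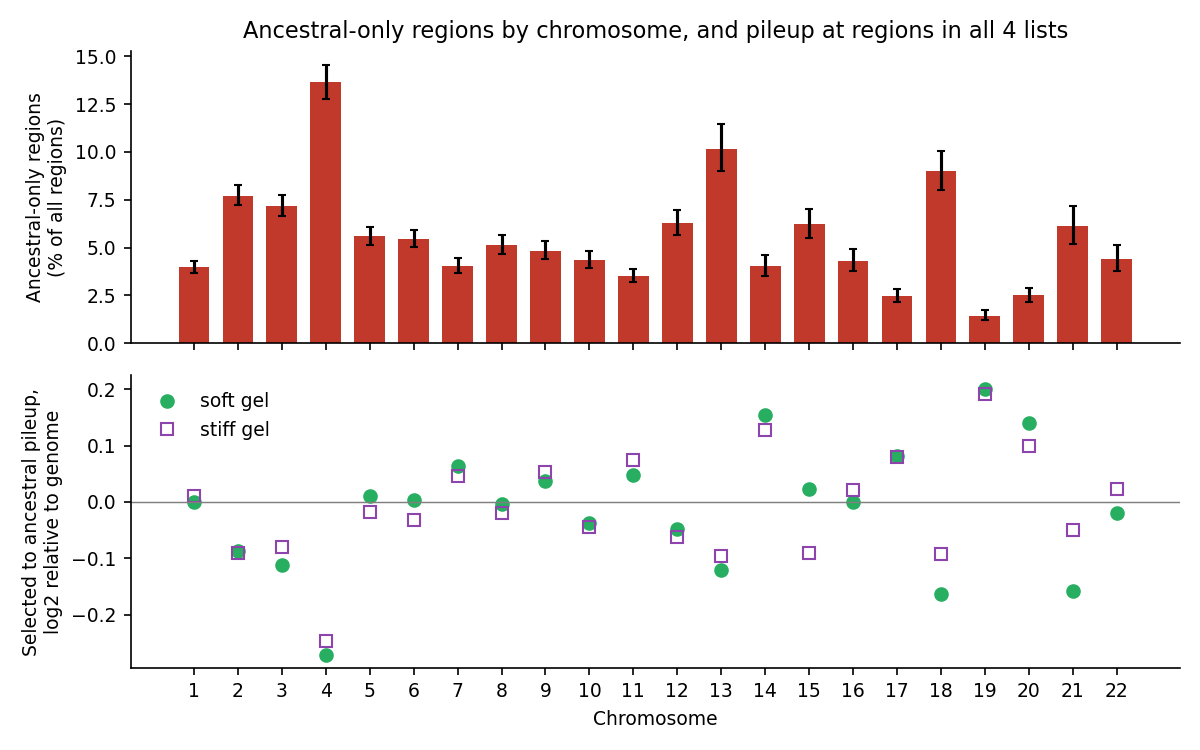
Upper panel, ancestral-only regions as a share of all regions of each chromosome (vertical axis, %), with exact 95% intervals as bars; lower panel, log2 ratio of selected to ancestral pileup at regions in all 4 lists relative to the genome (vertical axis), on soft and stiff gel. Chromosome 4 has the highest share (13.6%) and the lowest ratio, and chromosome 19 the lowest share (1.44%) and the highest ratio.

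The 5 windows with the highest share were all on chromosome 4. From 110 to 120 Mb, 58 of 200 regions (29.0%, 22.8 to 35.8) were ancestral-only, and 3 were in both selected lists only. The windows from 160, 140, 50 and 120 Mb had 23.19%, 22.31%, 22.04% and 20.67%. The window from 50 Mb begins near the centromere, where read placement was not tested. Of its 69 ancestral-only regions 26 had scaled pileups at or above the lowest listed ones, against 44 of 58 from 110 Mb. In these 5 the relative pileup ratio was between −0.33 and −0.47 on soft gel and between −0.35 and −0.45 on stiff gel. The lowest window was 140 to 150 Mb of chromosome 8, with 1 of 1163 regions (0.0860%) and a relative pileup ratio of 0.76 on soft gel and 0.69 on stiff gel. Next were 60 to 70 Mb of chromosome 11 (0.525%) and 130 to 140 Mb of chromosome 10 (0.567%).

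Ancestral-only regions stood beside each other more often than the genome-wide share. Of the 8216, 2088 (25.4%) had another as the next region on either side, while 9.56% of all regions had one next to them. In all, 924 runs held at least 2 in a row and 36 at least 4. The longest run was 9 regions over 516 kb inside CDH13. The next was 7 over 56.2 kb at chr2:30354520-30410760, nearest to LCLAT1, followed by 6 over 273 kb from just before the start coordinate of NTRK2 into the gene. Of the 36 runs of at least 4, 10 were farther than 500 kb from the nearest protein-coding gene, and 4 of them fell between 49829927 and 51254728 on chromosome 4, near its centromere, where repeated sequence is known to make read placement uncertain. Others of the 10 lay at chr6:59527061-59535727, chr6:59719969-59724424, chr2:92342645-92348636, chr8:45689538-45714844 and chr15:19391625-19543398. The part of read placement was not tested for any of these runs.

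At least 1 ancestral-only region within 100 kb was nearest to each of 3700 of 17175 protein-coding genes with any region (21.5%), and at least 5 to 109 genes (0.635%). These 109 genes were long, with a median length of 386 kb against 27.9 kb for genes with any region. So each count is given with the gene's regions of any kind and, for most genes, with the share of ancestral-only regions among the others within 5 Mb of the gene's middle. Over all regions within 100 kb of a protein-coding gene that share was 4.21%.

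CDH13 had the widest gap among the 12 genes between its own share and that around it. It encodes T-cadherin, a cadherin held to the membrane by a lipid anchor and lacking a cytoplasmic part. At CDH13, 11 of 22 regions were ancestral-only and 10 of these were inside the gene, against 1.96% of the regions around it, and 1 region was in both selected lists only. The strongest, chr16:83136847-83138112, had 11.9 on soft gel and 14.1 on stiff gel. The 11 had median fold enrichments of 3.24 and 3.53, and 5 had scaled pileups at or above the lowest listed ones.

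NTRK2, which encodes the BDNF receptor TrkB, had 9 of 16 regions (56.3%) against 11.03% around it, with 8 of the 9 at or above the lowest listed scaled pileup. Its values ran from 3.35 to 8.78 on soft gel and from 2.59 to 9.05 on stiff gel, and none of its regions was in both selected lists only. One region, chr9:84667979-84668510, lay beside the gene's start coordinate, and no other region of any kind lay within 1 kb of either end. The related receptor NTRK3 had 6 of 20 against 4.68%, all 6 at or above the scaled level.

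TENM3, a teneurin adhesion receptor, had the most ancestral-only regions, 12 of 27, in surroundings of 18.9%, but 6 of the 12 were at or above the lowest listed scaled pileup, fewer than the 8 each of INPP4B, NTRK2, PPARGC1A and KAZN. These numbers rest on the genome-wide ratio. The relative log2 ratio of chromosome 4, which holds TENM3, INPP4B and PPARGC1A, was −0.27 on soft gel and −0.25 on stiff gel. At the ratio of chromosome 4 their scaled pileups would be lower. On the same chromosome 4, INPP4B, a phosphatase that removes the second messenger of PI3K signalling, had 10 of 31 against 18.9%. KCNIP4 had 10 of 38 against 17.2%. LIMCH1, an activator of non-muscle myosin II, had 9 of 27 against 13.5%, with a strongest region of 13.5 and 15.6 at chr4:41475334-41475863. PPARGC1A, the mitochondrial coactivator PGC-1α, had 9 of 29 against 19.3%. For INPP4B, KCNIP4 and PPARGC1A the share was less than 2 times that of surroundings that were themselves high.

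Elsewhere, SUGCT, a mitochondrial CoA transferase gene, had 9 of 26 against 6.43%, and HDAC9, a histone deacetylase gene, had 9 of 32 against 7.84%. CELF2, a splicing regulator, had 9 of 46 against 8.47%. KAZN, a gene of desmosome and actin organisation, had 9 of 127 against 0.746%. In both selected lists only were 14 of its 127 regions, against 246 of the 1340 around it. LCLAT1, an acyltransferase of cardiolipin remodelling, had 8 of 15 against 9.77%, of which 1 was inside the gene. The order of the 12 genes moved with the setting: with equal numbers of peaks from each list their counts fell to between 1 (CDH13 and INPP4B) and 5 (KAZN), and with −log10 q of at least 10 in all 4 lists KAZN had 15, TENM3 8 and CDH13 5.

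**Figure D5:**
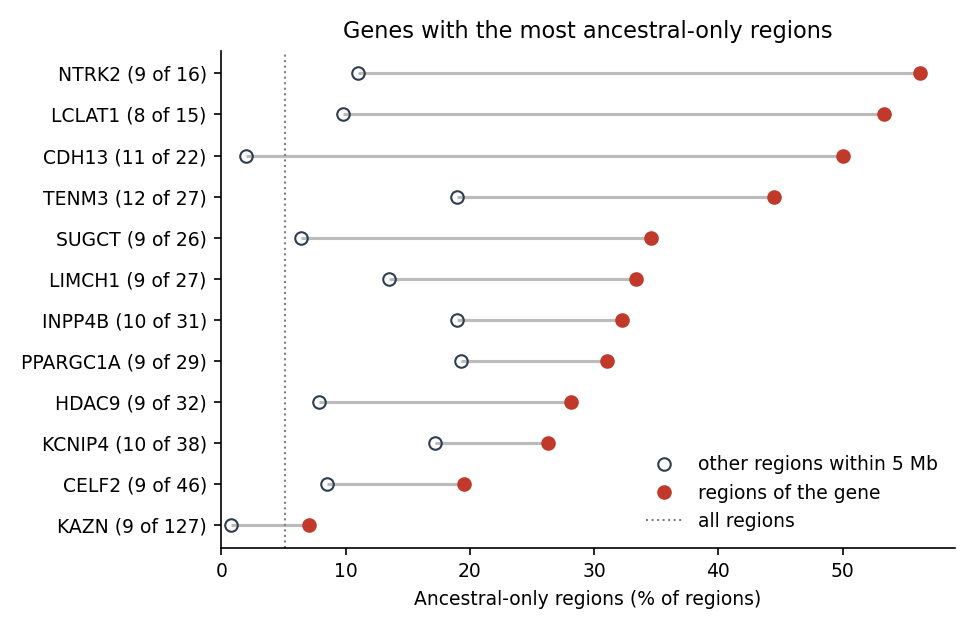
The 12 genes with the most ancestral-only regions: share of ancestral-only regions (horizontal axis, %) among the regions of each gene (filled points; counts beside the names) and among the other regions within 5 Mb of its middle (open points), with the share of all regions as a dotted line. Each gene lies to the right of its surroundings, from KAZN (7.09% against 0.746%) to NTRK2 (56.3% against 11.03%).

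Gene groups were described by lists, all set beside 21.5% of genes with an ancestral-only region and 4.21% of regions. No list was tested, and lists of long genes hold more regions of any kind. Over 9 other settings the share of all regions ran from 2.68%, with the limit on scaled pileup, to 9.87%, with −log10 q of at least 10 in all 4 lists, so each list's range is given with the number of settings in which it was above the setting's own share. The settings reuse the same peaks, so that number does not count separate evidence. Among TGF-beta ligands, receptors and SMADs, 17 of 24 genes had one, and 29 of 321 regions were ancestral-only (9.03%, 6.13 to 12.7). The range over settings was 5.92 to 11.5%, above in 9 of 9. LTBP1, which stores latent TGF-beta in the matrix, had 7 of 15 regions in surroundings of 13.1%, up to 9.19 and 8.43 at chr2:32976957-32977672. TGFB2, a TGF-beta ligand, had 4 of 27 against 10.1% around it, and BMPR1B, a BMP receptor, had 3 of 8 against 14.8%. BMP2, a BMP ligand, had a region within 1 kb of its lower end coordinate, with 2.48 and 4.38, and no other region within 1 kb of either end.

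Matrix and mesenchymal genes had shares of the same order. Of 32 extracellular matrix genes 19 had an ancestral-only region, with 37 of 466 regions (7.94%, 5.65 to 10.8; 5.58 to 14.9% over settings, above in 9 of 9). COL5A2, a fibrillar collagen V chain, had 6 of 16, COL8A1, a short-chain collagen, 4 of 23, and LAMA3, a laminin chain, 4 of 26, with 13.5%, 9.54% and 9.55% around them. COL5A1, the partner chain of COL5A2, had 1 just past an end, with 3.00 and 2.78. Among mesenchymal and EMT genes 10 of 18 had one, with 21 of 213 regions (9.86%, 6.21 to 14.7), including 3 of 6 at CDH11 (4.74% around it) and 3 of 20 at CDH2 (11.5%), both mesenchymal cadherins. That list had 5.21% with equal numbers of peaks, where all genes had 4.76%, and 5.63% with the limit on scaled pileup.

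Among matrix proteases and their inhibitors, 6 of 19 genes had one, with 13 of 275 regions (4.73%, 2.54 to 7.95; 2.55 to 9.20% over settings, above in 6 of 9). TIMP3, a matrix-bound inhibitor of metalloproteases, had 4 of 10 regions against 3.51% around it, but none reached the lowest listed scaled pileup on both gels, and the highest had 3.12 and 3.16. Another region at its upper end coordinate, which is not among those 4, had 3.58 and 3.53 and reached that level. ADAM19, a membrane-bound sheddase, had 3 of 21 against 5.45% around it, up to 10.0 and 8.62.

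Stiffness-linked lists were mixed. Of 28 target genes of YAP, TAZ and TEAD 14 had a region, with 33 of 524 (6.30%, 4.37 to 8.73). The range was 3.77%, with genes assigned within 10 kb, to 15.3%, above in 9 of 9. CRIM1, a BMP-binding membrane protein, had 5 of 27 against 16.9% around it, and ASAP1, a regulator of Arf GTPases at adhesions, had 5 of 104 against 3.01%. Of 29 focal adhesion and integrin genes 13 had one, with 18 of 591 regions (3.05%, 1.81 to 4.77, and 1.52 to 8.05% over settings, above in 0 of 9). Of the 591 regions, 65 were in both selected lists only (10.998%), near the 10.5% over all protein-coding genes. TLN2, a talin that links integrins to actin, had 3 of 34 against 5.77%. Of 19 Hippo pathway and TEAD genes 7 had one, with 10 of 264 regions (3.79%, 1.83 to 6.86; 1.52 to 5.35% over settings, above in 1 of 9). Of 25 actin, myosin and SRF target genes 7 had one, with 18 of 351 (5.13%, 3.07 to 7.98; 4.27 to 14.2% over settings, above in 9 of 9). Both intervals held the 4.21% of all genes.

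Single genes of those lists included SHROOM3 with 6 of 34 regions, in surroundings of 19.1%, and CALD1, the actin regulator caldesmon, with a region of 3.29 and 4.00 within 1 kb of an end. Among 12 mechanosensitive channel genes 4 had one, with 8 of 138 regions (5.80%, 2.54 to 11.1; 2.17 to 9.78% over settings, above in 6 of 9). PIEZO2, a touch channel, had 2 of 10 against 7.33% around it.

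Receptor and neuron-related lists held several of the genes with high counts. Of 35 receptor tyrosine kinase genes 15 had one, with 36 of 537 regions (6.70%, 4.74 to 9.16; 4.84 to 15.03%, above in 9 of 9), of which NTRK2 and NTRK3 gave 15. EPHA5, an ephrin receptor, had 3 of 7 against 16.4% around it, up to 11.3 and 11.5. Of 30 neuron adhesion and synapse genes 17 had one, with 72 of 704 regions (10.2%, 8.09 to 12.7), and 108 of the 704 were in both selected lists only (15.3%, against 10.5% over all protein-coding genes). This list ran from 5.82%, with the limit on scaled pileup, to 16.3%, above in 9 of 9. Of the neuron markers, SNAP25 and SYT1 had end peaks in all 4 lists, as given above.

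In the phosphoinositide list 7 of 19 genes had one, with 18 of 305 regions (5.90%, 3.53 to 9.17; 4.92 to 15.1% over settings, above in 9 of 9), 10 of them at INPP4B. In the AP-1 family 4 of 15 genes had one, with 10 of 158 regions (6.33%, 3.08 to 11.3; 4.43 to 11.2% over settings, above in 9 of 9), 7 of them at BACH2 (11.2% around it), a repressor that binds AP-1-like sites and whose strongest region had 11.2 and 12.8. The intervals of both lists held the 4.21% of all genes.

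The remaining lists lay on both sides of the background. Blood cell markers had 2 of 16 genes with a region and 2 of 227 regions (0.881%, 0.107 to 3.15). Of the 227 regions, 34 were in both selected lists only (14.98%, against 10.5% over all protein-coding genes). The ancestral-only share of the blood list was 8.33% with −log10 q of at least 10 in all 4 lists. It was 3.13% with equal numbers of peaks. All genes had 9.87% and 4.76% there, and the blood list was above in 0 of 9 settings. Interferon response genes had 2 of 18 and 2 of 77 (2.60%, 0.316 to 9.07, above in 0 of 9), cell cycle genes 4 of 23 and 6 of 187 (3.21%, 1.19 to 6.85, above in 1 of 9), and epithelial genes 5 of 26 and 10 of 277 (3.61%, 1.74 to 6.54, above in 1 of 9). NF-kB and cytokine genes had 4 of 20 and 6 of 139 (4.32%, 1.60 to 9.16, above in 5 of 9) and basal markers 6 of 16 and 9 of 184 (4.89%, 2.26 to 9.08, above in 9 of 9). Both shares were near the 4.21% of all genes, which both intervals held. Luminal markers had 4 of 15 and 8 of 125 (6.40%, 2.80 to 12.2, above in 8 of 9), but 2.11% with genes assigned within 10 kb. Neuron markers had the highest region share of the 21 lists, with 6 of 13 genes and 9 of 86 regions (10.5%, 4.90 to 18.9, above in 8 of 9), but 2.94% with equal numbers of peaks.

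Within them, KRT6B, a basal keratin gene, had 2 regions and both were ancestral-only, against 2.54% around it, the stronger with 11.4 and 10.9 at chr12:52442579-52443104. CCL20, a chemokine, had 2 of 5 against 8.12% around it, from 7.28 to 7.63 on soft gel and from 5.84 to 6.45 on stiff gel. GATA3, the luminal regulator, had 3 of 25 against 7.30% around it, of which 1 lay past its end with 4.22 and 5.09, while 9 of its regions were in both selected lists only, against 44 of the 575 around it.

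A region within 1 kb of either end was found for 203 of 19122 protein-coding genes (1.06%) and for 8 genes of the lists. Besides BMP2, CALD1, COL5A1, GATA3, MMP7, NTRK2 and TIMP3, the eighth was RBFOX3, a neuronal splicing factor gene, with 3.87 and 4.10 at chr17:79665344-79665703. MMP7, BMP2 and NTRK2 had no other region at either end, and the remaining 5 had between 1 and 3 others. Exons, introns and UTRs were not annotated, because the gene table gives only the ends of genes.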

How the data were processed

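ATAC-seq peaks of 4 groups of 4 MDA-MB-231 samples were used, as 1 deposited list per group. Per the submitters' processing notes, the build was GRCh38 and the tools, listed without roles or order, were Bowtie2 2.4.5, MACS2 2.2.7.1, Trimmomatic 0.36, FastQC 0.11.4 and MultiQC 1.1. Whether and how MACS2 pooled libraries, and its options, is not given in the sources used here. Per the file headers, each peak has a pileup signal at its summit, a −log10 q-value and a fold enrichment. The deposited pileup signal is not scaled to depth, and the authors' fold enrichment equals the pileup plus 1 over a background plus 1. That background was 16.3, 20.2, 13.5 and 12.6 in ancestral cells on soft and stiff gel and selected cells on soft and stiff gel, and is the only depth measure used, since read totals are not in these columns. The lowest pileups were 31, 37, 27 and 26. The names in the selected lists skip 1311 and 1240 numbers, and the shortest stretches concerned span 9099 and 8607 bp.

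Each summit took the closest of 19122 protein-coding genes of GRCh38.p14, up to 100 kb away. Promoter windows of 300 bases and their sequences came from RefSeq. Of 460 list symbols, 450 were found, and some of their results are not reported here. The rule named the 12 strongest regions at least 300 bp wide in both lists, the 12 genes with the most members, list genes with an end region, up to 3 genes per list with at least 2 members, and the windows of 10 Mb with the highest and lowest shares. The regions and lists were chosen with earlier results of these data known. No test was run, because each group has 1 list. Alternatives changed the overlap, gap, q threshold, number of peaks, skipped stretches, chromosomes, gene distance and promoter coverage. Shares carry exact 95% intervals and medians binomial ones. Software was pandas 2.3.3, numpy 2.4.6, scipy 1.17.1 and matplotlib 3.10.9 under python 3.11.15. On simulated lists, all 10402 ancestral-only regions planted outside skipped stretches were found with 0 false ones, and all 1594 removed peaks were located. Those lists copied the peaks of 1 ancestral list with small shifts and no loss of weak peaks. That outcome followed from how they were built, so it checks the code only and not the effect of depth.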

Additional observations from a re-analysis of the deposited data

Results flagged for a closer look

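Chromosome X was outside the rule and was looked at separately. There 624 of 2789 merged regions (22.4%, exact 95% interval 20.8 to 24.0) had a peak in both ancestral lists and none in a selected list, above the 13.6% of chromosome 4, which was the highest of chromosomes 1 to 22. Their median fold enrichments were 4.33 and 4.71 on soft and stiff gel, and 59 regions of chromosome X were in both selected lists only.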

How the results depend on the processing

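With 1 list per group, leaving out a replicate could not be run, and p-values were not given under any setting. No paired analysis was possible because the lists carry no replicate. The main values were 8216 regions, a median fold enrichment of 3.70 on soft gel, 38.2% inside a gene, 109 genes with at least 5 regions, 166 list genes with a region and 155 promoter windows. With −log10 q of at least 10 in all 4 lists, the median was 4.28, 41.5% were inside a gene, and 200 genes and 289 promoter windows were counted. With that threshold in the ancestral lists only, the median was 4.45, 40.2% were inside a gene and 58 genes were counted. With the 54789 peaks of highest −log10 q from each list, 3337 regions qualified, with a median of 8.49, 43.3% inside a gene, 15 genes, 107 list genes and 95 promoter windows. With regions at skipped stretches kept, 44.3% were inside a gene, and 201 genes and 371 promoter windows were counted; TGANTCA was then in 9.97% of the windows, and the member share of chromosome 19 was 3.37%. With genes assigned within 10 kb, 64 genes were counted. Added after the data were seen, the restriction to scaled pileups at or above the lowest listed left 4849 regions, a median of 4.68, 40.6% inside a gene, 40 genes and 89 promoter windows. The chromosome 4 share stayed above that of chromosome 19 under each setting that changed the regions. For the main values, 29 of the alternatives lay within their interval or within 1.5 times and 22 did not. Among values of single genes, lists and other shares, 271 of the alternatives lay within these limits and 102 did not, 61 of these lower and 41 higher. The lists hold no peak below their lowest pileup, so regions of low scaled pileup cannot be judged at this depth.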

Other observations

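Hairpins of 5 of 1461 microRNAs overlapped an ancestral-only region, named here after their values were seen. MIR128-2, inside the neuronal gene ARPP21, had fold enrichments of 5.03 on soft gel and 4.00 on stiff gel. MIR4293 had 3.70 and 4.90, MIR4799 had 2.54 and 4.33, MIR8052 had 3.81 and 3.30, and MIR4278 had 3.18 and 3.39.

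Further runs of 5 ancestral-only regions in a row, with no other region between them, lay inside FOXP1, a forkhead repressor gene (165 kb), and inside MAGI2, a synaptic and junctional scaffold gene (171 kb). A run of 5 over 47.3 kb was nearest to KCNA5, over 100 kb away, and one over 129 kb was nearest to FCER1A, the chain of the IgE receptor that binds IgE. The fifth such run, on chromosome 15, lay over 500 kb from the nearest protein-coding gene.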
